A study of Danio rerio with 12 samples.

Results

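The genes described here encode the machinery that starts and carries on transcription by RNA polymerase II, together with the related factors of RNA polymerase III. They were chosen by a rule on the symbol, with earlier results of these data known. The rule took probe sets for which the array annotation gives a single gene. Its symbol had to start with polr2, polr3, med or taf followed by a digit, gtf2, gtf3, supt, ccnt, nelf, tbp or ell. This gave 99 probe sets of 82 genes, out of 15502 probe sets tested, of which 10795 carry a single gene. The symbol patterns also take in a few proteins with other tasks, which are named as such where they appear. RNA was measured in whole wild-type AB zebrafish embryos collected at 24 hours post-fertilization (hpf). The 6 control pools were kept without drug, and the 6 morphine pools were kept in 10 nM morphine, added to the E3 embryo medium from 5 hpf onwards. Each pool held about 100 embryos and was hybridized to 1 Affymetrix Zebrafish Genome Array. The sources do not say whether the pools came from separate clutches, so the p-values measure the spread between pools.

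RNA polymerase II makes messenger RNA. To start, it needs general transcription factors at the promoter: TFIID, built of the TATA-binding protein (TBP) and its associated factors (TAFs), recognises the promoter, TFIIB bridges it to the polymerase, TFIIF escorts the polymerase, and TFIIE brings in TFIIH, which opens the DNA. Mediator is a large complex of a head, a middle, a tail and a detachable kinase module that passes signals from activators to the polymerase. After initiation the polymerase commonly pauses under the negative elongation factor (NELF) and is released by P-TEFb, a kinase made of Cdk9 and a T-type cyclin. RNA polymerase III makes transfer RNAs and other small RNAs and uses TFIIIA, TFIIIB and TFIIIC. In zebrafish the embryo starts its own transcription at the blastula stage, so that this machinery is in use throughout the period of the exposure.

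With morphine, 5 of the 99 probe sets differed from controls at an adjusted p under 0.10 in limma (5.05%), against 6.85% of all probe sets tested. The genes ccnt1, med11 and gtf2f1 were higher, and polr2l and gtf2b were lower. Among all probe sets 3.13% were called higher and 3.72% lower. At an unadjusted p under 0.05, 12 of the 99 passed (12.1%), against 16.6% of all, and the 6 morphine and 6 control arrays did not overlap for 2 members (2.02%), against 3.61% of all. The shares of members called were thus near or below those of the whole array, and the calls are described below as single genes. The same 5 were called by SAM, the permutation method of the study, which called 7.23% of all probe sets. The SAM q of gtf2b was 0.0999, barely under the threshold of 0.10.

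The differences were small. The median log2 fold change, morphine minus control, was -0.02 over the members and 0.01 over all probe sets, and its median size was 0.07 in both. 41 members lay above 0 and 58 below, so 41.4% were above 0, against 53.8% of all. A single member, ccnt1, reached 1.3-fold, which 1.84% of all probe sets did. Of the 94 members not called, 84 had a 95% interval that lay within 1.3-fold in either direction, a log2 value of 0.38, and for 10 the interval reached beyond it. A bound of 1.2-fold, a log2 value of 0.26, held the intervals of 66 of the 94. These shares were near those of the whole array. Intervals within 1.3-fold were found for 87.9% of all members, called or not, against 89.3% of all probe sets. Within 1.2-fold the shares were 66.7% and 68.5%. For most members not called, then, a change of 1.3-fold or more lay outside the interval. In whole embryos a lower signal from fewer cells that use a gene and one from less RNA per cell cannot be told apart.

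**Figure D1:**
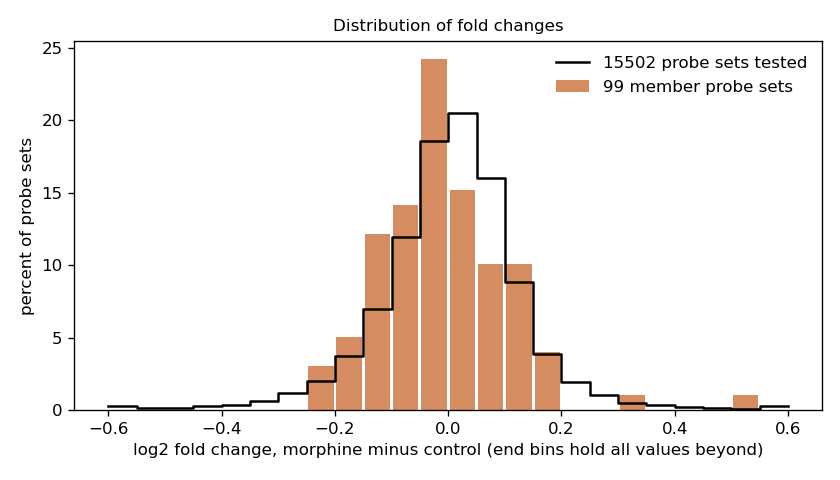
Distribution of the log2 fold change, morphine minus control, in percent of probe sets per bin, for the 99 members (filled bars) and for all 15502 probe sets tested (black line). The members lie between -0.25 and 0.52 around a median of -0.02, and the 2 members to the far right are med11 at 0.33 and ccnt1 at 0.52.

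All 12 arrays were alike in overall signal, with medians of 5.81 to 5.86 on the log2 scale and correlations between arrays of 0.990 to 0.999. Control means of the members ran from 3.71 to 11.2 with a median of 7.42, against a median of 5.83 over all probe sets, and 13 of the 99 lay below a log2 signal of 5 on every array (13.1%, against 34.1% of all). A filter on dim probe sets, which asked for a log2 value of 5 or above on no fewer than 6 arrays, kept 84 members and left out 15. The median SD of a member was 0.10 among control and 0.13 among morphine arrays. The whole-embryo label was checked with 44 probe sets of 32 tissue marker genes, of which none was called higher and 8 were called lower (18.2%, against 6.85% of all). Of these, 3 were from muscle and 2 from liver and yolk syncytial layer. The rest were sox19a (neural progenitor, -0.20), a probe set of stmn1b (neuron, -0.37) and dct (pigment cells, -0.29). Not called were 7 other probe sets of neural progenitor, 7 of neuron and 2 of pigment cell markers. The medians over all probe sets of these 3 cell types were -0.11, -0.02 and -0.06. The brighter probe set of stmn1b, with a control mean of 9.26, was at -0.16 and not called. The muscle calls were of mylpfa and tnnt3a, and the muscle marker myog was at 0.05 and not called. The summed signal of the 44 lay between 16.22 and 16.34 (log2) in controls and between 16.15 and 16.24 with morphine, and that of the 4 muscle probe sets between 13.05 and 13.47 and between 12.66 and 12.96. Markers of blood, notochord and germ cells had 0 calls by limma and SAM and none at an unadjusted p under 0.05, and those of the epidermis had 0 calls and 1 at that level, a probe set of tp63 that was called higher with the replicate number as a block (0.18, adjusted p 0.0568). The lowest control mean of any marker was 3.86. The part of tissue composition in the calls below was not tested.

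Among the catalytic core, polr2l was the one member called. It encodes the small subunit RPB10, which RNA polymerases I, II and III share. The signal of polr2l in controls had a lowest value of 10.56, a median of 10.67 and a highest of 10.70, and with morphine 10.38, 10.45 and 10.51. Every morphine array lay below every control array. The means were 10.64 ± 0.06 in controls and 10.45 ± 0.06 with morphine (SD, n = 6 each), which is a log2 fold change of -0.19 with a standard error of 0.05 and a 95% interval of -0.30 to -0.09. This corresponds to a signal 1.14-fold lower, with an adjusted p of 0.0278 in limma. The exact two-sided permutation test over the 924 ways to divide the 12 arrays gave p = 0.00216, the smallest it can give. Groups without overlap always give this value, so it adds nothing to the lack of overlap. The difference kept its call without each of the 12 arrays in turn, at adjusted p of 0.0279 to 0.0764.

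The other shared subunits were not called. For polr2eb, a form of the shared subunit RPB5, the log2 fold change was -0.12 (95% interval -0.26 to 0.03), and for polr2f, which encodes RPB6, it was 0.05 (-0.06 to 0.17). The intervals of polr2l and polr2eb overlap, and whether those subunits differ from each other was not tested.

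None of the 7 probe sets of subunits particular to RNA polymerase II was called by limma, by SAM or with the replicate number as a block, and none had an unadjusted p under 0.05. These cover polr2a, the largest subunit with the catalytic centre and the C-terminal tail, polr2c, polr2g, polr2i and polr2j. Their log2 fold changes ran from -0.23 for polr2g to 0.20 for the brightest probe set of polr2a, with a median of 0.02, 4 above 0 and 3 below. The interval was wide for polr2g, -0.50 to 0.05, and narrow for polr2j, -0.02 to 0.17. For polr2b, the other large subunit of the enzyme, no probe set met the rule.

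The 3 probe sets of polr2a did not point one way. Their log2 fold changes were 0.20 (95% interval -0.12 to 0.51), 0.10 (-0.27 to 0.47) and -0.07 (-0.23 to 0.09), in the order of their control means of 8.38, 6.36 and 4.59. The third of them was below a log2 signal of 5 on every array. Among the 12 genes with several probe sets, polr2a, med10 and gtf3ab had probe sets on both sides of 0, the other 9 had all on one side, and none of their 29 probe sets was called.

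The brightest polr2a probe set showed an unequal spread in the 2 groups. Morphine replicates 1 to 6 read 8.10, 8.93, 8.32, 8.98, 8.17 and 8.94, and the controls lay between 8.24 and 8.50. Replicates 2, 4 and 6 of the morphine group were thus above every control array, and replicates 1 and 5 were below every control array. The SD was 0.42 with morphine and 0.11 in controls, and the adjusted p of the difference in means was 0.569. The polr2a probe set with a control mean of 6.36 also spread widely, with an SD of 0.44 with morphine and 0.28 in controls. It was above all controls on morphine replicate 2 alone (7.16, highest control 6.76). Morphine replicates 2, 4 and 6 were above the controls of the same number (7.16, 6.60 and 6.41 against 6.65, 6.24 and 6.21). Replicates 1, 3 and 5 were below theirs (6.58, 6.04 and 5.94 against 6.76, 6.22 and 6.05). The probe set with a control mean of 4.59 did not share this spread, with an SD of 0.13 with morphine and 0.14 in controls. It was above all controls on morphine replicate 6 alone (4.75, highest control 4.72).

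Some other members had a spread shaped like that of the brightest polr2a probe set, and those given here were picked after their values were seen. For med14, the backbone of Mediator that joins its modules, morphine replicates 1 to 6 read 6.87, 7.56, 7.17, 7.46, 6.91 and 7.55, and the controls lay between 7.16 and 7.39. Replicates 2, 4 and 6 were again above all controls, replicates 1 and 5 below all of them, and the means were equal at 7.25. For med13b, a form of the subunit that links the kinase module to the rest of Mediator, the morphine values were 5.57, 6.22, 5.48, 6.04, 5.45 and 6.26 against 5.60 to 5.90 in controls. med15, a tail subunit that activators bind, read 6.65, 6.49 and 6.58 on morphine replicates 2, 4 and 6. On replicates 1, 3 and 5 it read 6.16, 6.09 and 6.28, against 6.15 to 6.32 in controls. Only replicate 3 of these was below all controls, and replicates 1 and 5 lay within them. The tail subunit med16 read 6.88, 6.75 and 6.79 on replicates 2, 4 and 6, and 6.49 and 6.56 on replicates 1 and 5, against 6.57 to 6.74 in controls. ccnt2b read 9.24, 9.31 and 9.25 on replicates 2, 4 and 6, above its highest control of 9.22, and no morphine array was below its controls. Others did not show this spread, such as med24, with all morphine arrays between 7.93 and 8.03, med17, between 7.14 and 7.30, and taf1, which was above all controls on morphine replicate 4 alone.

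Other members were low on some of the same arrays. polr2g, the stalk subunit RPB7, read 8.51, 7.97, 8.53, 7.99, 8.71 and 8.41 on morphine replicates 1 to 6, with 8.23 to 8.86 in controls. Replicates 2 and 4 were its lowest values of all 12 arrays. taf10, a histone-fold protein found in both TFIID and the coactivator SAGA, read 9.64, 9.31, 9.61, 9.15, 9.95 and 9.64 with morphine against 9.69 to 9.99 in controls, so that every morphine array but replicate 5 was below all controls. The log2 fold change of taf10 was -0.25 (95% interval -0.48 to -0.02) with an adjusted p of 0.252 over all arrays, and without morphine replicate 5 it was -0.33 with an adjusted p of 0.0652.

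Wide spreads among the morphine arrays were found across the whole array too. The values of the 6 morphine arrays spanned 0.5 or more on the log2 scale for 23 members (23.2%), against 16.3% of all probe sets, and those of the 6 control arrays did so for 11 members (11.1%), against 9.46% of all. The SD was larger with morphine for 65 members (65.7%, against 63.1% of all probe sets). The labels give nothing that sets morphine replicates 2, 4 and 6 apart. The difference between the 3′ and the 5′ probe sets of the actin control, a measure of RNA or labelling quality, was 4.12, 5.11 and 5.32 (log2) on these and 3.51, 4.78 and 4.21 on replicates 1, 3 and 5. Its part in this spread was not tested.

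**Figure D2:**
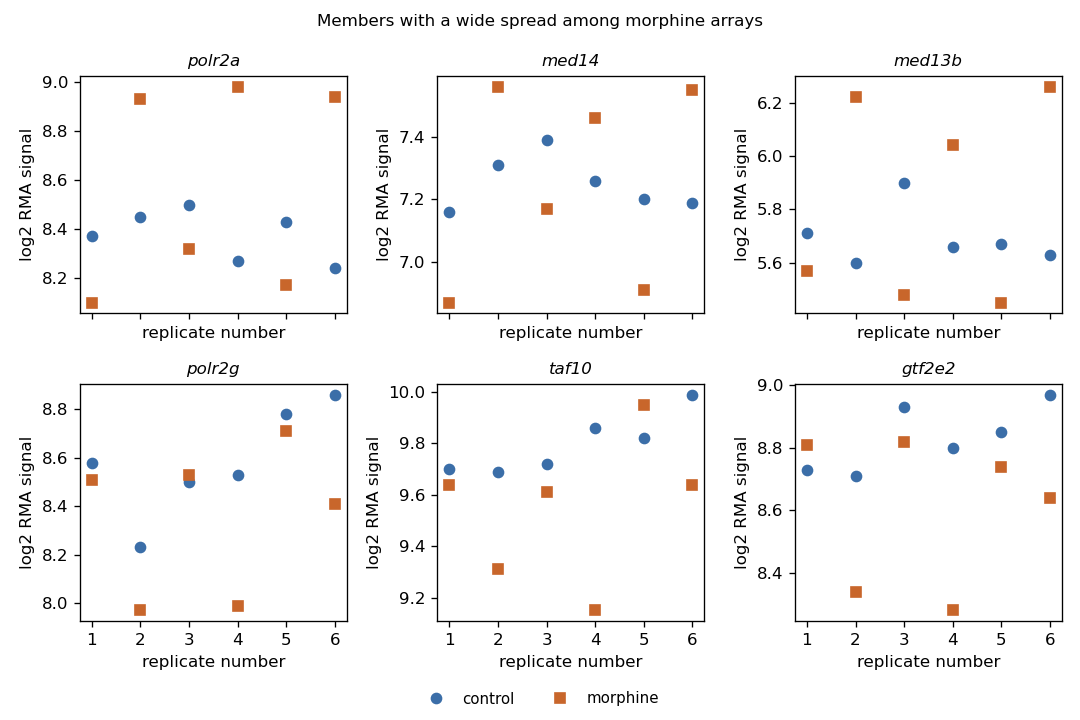
log2 RMA signal of 6 members (vertical axis) on each array by replicate number (horizontal axis), with circles for control and squares for morphine arrays. Morphine replicates 2, 4 and 6 are above all controls for the brightest polr2a probe set, the one shown, and for med14 and med13b. Replicates 2 and 4 are the lowest values of polr2g, taf10 and gtf2e2.

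The 6 subunits particular to RNA polymerase III had no call either. One of them, polr3d, had an unadjusted p under 0.05, with a log2 fold change of 0.13 (95% interval 0.00 to 0.25) and an adjusted p of 0.299. The lowest was polr3b, the counterpart of polr2b in this enzyme, at -0.11 (-0.26 to 0.04). The median was 0.03, with polr3c, polr3f and polr3k also above 0 and polr3e below.

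Of the 27 Mediator probe sets, which cover 21 genes, only med11 was called (Mediator median -0.02, 10 above 0 and 17 below). It encodes a small subunit of the head, the module that contacts the polymerase. med11 read 8.05, 7.81, 7.96, 8.02, 7.70 and 7.74 on control replicates 1 to 6 and 8.36, 8.09, 8.21, 8.04, 8.33 and 8.20 on the morphine replicates. The groups overlapped by a single pair of arrays, as morphine replicate 4 was below control replicate 1 and the other 5 morphine arrays were above every control. The means were 7.88 ± 0.15 and 8.20 ± 0.13 (SD, n = 6 each), a log2 fold change of 0.33 with a standard error of 0.08 and a 95% interval of 0.17 to 0.49. The signal was 1.25-fold higher with morphine, with an adjusted p of 0.0192 in limma, and of 0.0145 to 0.0519 when each array was left out in turn.

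The remaining head subunits were not called. The 11 other head probe sets lay between -0.12 for med22 and 0.04 for med8, with the architectural subunit med17 at 0.01, med18 at -0.01, med20 at 0.00 and med6 at -0.05. The 3 probe sets of med28 read -0.06, -0.11 and -0.08, and the single probe set of med30 read -0.08. Of the head, 3 probe sets were above 0 and 9 below, with a median of -0.05. The lower end of the interval of med11, at 0.17, was above the upper end for med17 and for med18, both at 0.13, and a difference between subunits was not tested.

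The middle module had 0 calls among 8 probe sets by limma, SAM and the block, and 1 at an unadjusted p under 0.05. That was med31, with control values of 8.04, 8.35, 8.10, 8.13, 8.14 and 8.20 and morphine values of 8.51, 8.31, 8.33, 8.22, 8.50 and 8.12. The groups overlapped, since control replicate 2 was above 4 of the morphine arrays. The log2 fold change of med31 was 0.17 (95% interval 0.02 to 0.32) with an adjusted p of 0.242. It was 0.20 with an adjusted p of 0.0931 where arrays were weighted by their quality, a fit that called 7.99% of all probe sets. The lowest of the module was 1 of the 2 med4 probe sets at -0.14 (-0.34 to 0.06), and med10 gave -0.10, -0.09 and 0.13 on its 3 probe sets, of which the last was dim at a control mean of 4.42.

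In the tail none of 6 probe sets was called by any of these fits or had an unadjusted p under 0.05. They ran from med29 at -0.05 (95% interval -0.19 to 0.09) to med15 at 0.13 (-0.05 to 0.32). med16, med24 and med25 lay at 0.02, -0.02 and 0.01, with an interval of -0.12 to 0.08 for med24. The kinase module was covered by med13b alone, at 0.14 (-0.15 to 0.43). For med1 and med12, which carry the contact to nuclear receptors and the activation of the Mediator kinase, no probe set met the rule.

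The TBP family and the TAFs were the largest group, with 22 probe sets of 18 genes, and had 0 calls by limma, by SAM or with the block. 5 lay above 0 and 17 below, with a median of -0.03. tbp itself, which binds the TATA box, had means of 6.97 ± 0.22 among control and 6.93 ± 0.24 among morphine arrays (SD, n = 6 each), a log2 fold change of -0.05 (95% interval -0.29 to 0.19). taf1, the largest TFIID subunit, was dim at 4.75 ± 0.23 and 4.72 ± 0.24, with a log2 fold change of -0.03 (-0.28 to 0.22).

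At an unadjusted p under 0.05 there were 2 in this group, taf10 as given above and taf2, a TFIID subunit at the promoter DNA. taf2 was at -0.17 (95% interval -0.32 to -0.01) with an adjusted p of 0.259. Among other TFIID subunits with brighter probe sets, taf5 was at 0.02, taf7 at -0.05, taf8 at -0.01, taf9 at -0.01 and taf12 at -0.05. The 3 probe sets of taf11 were at -0.02, -0.11 and -0.02. The intervals of these all lay within 1.3-fold, while that of the bright taf10 (-0.48 to -0.02) reached beyond it. The highest value of the group was taf1c at 0.09 (-0.05 to 0.23), which in mammals belongs to the selectivity factor of RNA polymerase I, as does taf1a at 0.05. taf5l and taf6l, which belong to SAGA, were at -0.17 and at -0.08 and -0.02, and taf15, an RNA-binding protein, was at 0.04.

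The factors that follow TFIID at the promoter gave one call in each direction. gtf2f1, the large subunit of TFIIF, had a lowest control value of 6.59, a median of 6.69 and a highest of 6.82, and with morphine 6.75, 6.89 and 6.98. 4 of the 6 morphine arrays were above all controls. The means were 6.69 ± 0.08 and 6.88 ± 0.08 (SD, n = 6 each), a log2 fold change of 0.19 with a standard error of 0.05 and a 95% interval of 0.07 to 0.30, or 1.14-fold higher, with an adjusted p of 0.0665 in limma.

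The small subunit of the same factor, gtf2f2a, did not show this. Its 2 probe sets had log2 fold changes of -0.02 (95% interval -0.19 to 0.14) and -0.05 (-0.34 to 0.24), so the upper bound of both was above the lower bound of gtf2f1. Whether the subunits differ in their response was not tested.

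gtf2b, which encodes TFIIB, had a lowest control value of 8.32, a median of 8.49 and a highest of 8.54, and with morphine 8.20, 8.29 and 8.39. 3 of the 6 morphine arrays were below all controls, and control replicate 5 was the control nearest to them. The means were 8.47 ± 0.08 and 8.29 ± 0.08 (SD, n = 6 each), a log2 fold change of -0.17 with a standard error of 0.05 and a 95% interval of -0.29 to -0.05. This is 1.13-fold lower, and its adjusted p of 0.0976 in limma was just under the threshold.

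With each array left out in turn, the call of gtf2f1 was lost in 8 fits and that of gtf2b in 9. The losses were thus not tied to a single array. For gtf2f1 the adjusted p passed 0.10 without control replicates 1 (0.108), 2 (0.101), 3 (0.112), 4 (0.142) or 5 (0.143), and without morphine replicates 1 (0.105), 3 (0.125) or 6 (0.109). For gtf2b it did so without control replicates 1 (0.194), 2 (0.158), 3 (0.168), 4 (0.139) or 6 (0.186), and without morphine replicates 2 (0.128), 3 (0.159), 4 (0.187) or 5 (0.168). The direction was kept without every array, at log2 fold changes of 0.17 to 0.21 for gtf2f1 and -0.20 to -0.15 for gtf2b. Both lost the call when the variance was modelled with a trend and robust estimation, at 0.117 and 0.13, in a fit that called 6.82% of all probe sets. gtf2b also lost it after quantile normalization of the deposited values again (0.165), where 6.79% of all were called. At an adjusted p under 0.05, which 4.64% of all probe sets passed, ccnt1, med11 and polr2l were the members called.

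gtf2e2, the beta subunit of TFIIE, was the lowest of this group by fold change. It read 8.73, 8.71, 8.93, 8.80, 8.85 and 8.97 on control replicates 1 to 6 and 8.81, 8.34, 8.82, 8.28, 8.74 and 8.64 on the morphine replicates. Morphine replicates 2, 4 and 6 were below all controls and the other 3 among them. The log2 fold change was -0.23 (95% interval -0.43 to -0.03) with an adjusted p of 0.221. With the replicate number as a block, a fit that called 9.98% of all probe sets, gtf2e2 passed the threshold with an adjusted p of 0.0942. gtf2a1, of TFIIA, was at -0.12 (-0.27 to 0.02).

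**Figure D3:**
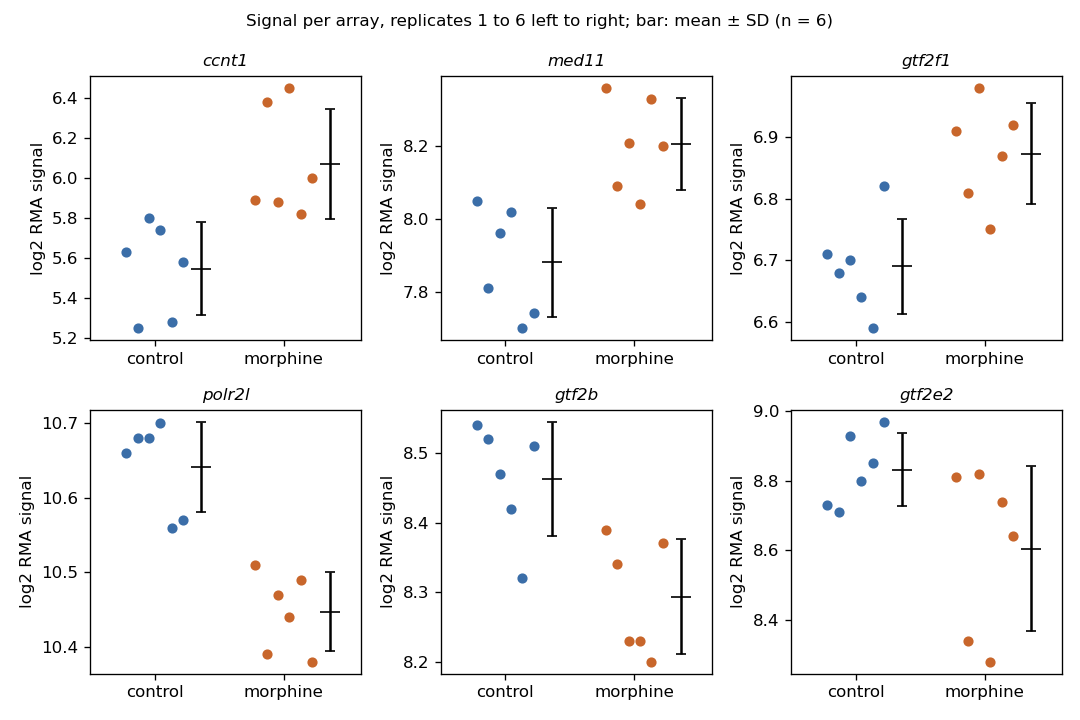
log2 RMA signal (vertical axis) on each control and morphine array for the 5 called members and for gtf2e2, with replicates 1 to 6 from left to right in each group and the mean ± SD (n = 6) beside them. The groups are apart for ccnt1 and polr2l and overlap for the other 4.

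The 4 TFIIH genes had 0 calls by limma, SAM and the block, and none had an unadjusted p under 0.05. They ran from gtf2h5, the smallest subunit, at -0.14 (95% interval -0.28 to 0.01) to gtf2h2 at 0.04 (-0.08 to 0.17). gtf2h1 was at -0.03 and gtf2h4 at -0.12, so 3 of the 4 were below 0 with a median of -0.07.

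TFIIIA and TFIIIC, which RNA polymerase III uses, were covered by 9 probe sets of 7 genes. None of these was called by limma, SAM or the block. They ran from gtf3c4 at -0.12 to one of the probe sets of gtf3ab at 0.11 (95% interval -0.02 to 0.24). gtf3c4 was the one with an unadjusted p under 0.05, with an adjusted p of 0.284, and read 5.74 to 5.84 in controls and 5.52 to 5.85 with morphine. The 4 probe sets of the TFIIIA genes gtf3aa and gtf3ab were dim, with control means between 3.74 and 4.69.

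The elongation factors held the largest change of all members, ccnt1. It encodes cyclin T1, the regulatory partner of Cdk9 in P-TEFb. ccnt1 read 5.63, 5.25, 5.80, 5.74, 5.28 and 5.58 on control replicates 1 to 6 and had a lowest value of 5.82, a median of 5.95 and a highest of 6.45 with morphine. Every morphine array was above every control array, with morphine replicate 5 and control replicate 3 the closest at 5.82 and 5.80, and morphine replicates 2 and 4 were the highest at 6.38 and 6.45. The means were 5.55 ± 0.23 and 6.07 ± 0.27 (SD, n = 6 each), which is a log2 fold change of 0.52 with a standard error of 0.12 and a 95% interval of 0.26 to 0.79. The signal was 1.44-fold higher with morphine, with an adjusted p of 0.0212 in limma and p = 0.00216 in the exact permutation test. As for polr2l, the latter value follows from the lack of overlap. The call held without each array in turn, at log2 fold changes of 0.45 to 0.58 and adjusted p of 0.0168 to 0.056.

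The other T-type cyclins were ccnt2a at 0.18 (95% interval 0.02 to 0.33, adjusted p 0.222) and ccnt2b at 0.11 (-0.06 to 0.29). The kinase itself, cdk9, which the symbol rule does not take in, had means of 8.43 ± 0.09 among control and 8.46 ± 0.12 among morphine arrays (SD, n = 6 each), with an adjusted p of 0.908. Of the factors that speed the polymerase, ell was at 0.11 (-0.06 to 0.29), and the 3 probe sets of ell2 were at 0.09, 0.04 and 0.11. The first of these had the widest interval of all members, -0.50 to 0.68.

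supt5h, a subunit of the pausing and elongation factor DSIF, was at 0.13 (95% interval -0.04 to 0.31), and supt6h, a histone chaperone that travels with the polymerase, was at 0.11 (-0.04 to 0.26). On morphine replicates 2, 4 and 6 supt5h read 8.63, 8.53 and 8.72, each above the highest control of 8.46, and on replicates 1, 3 and 5 it read 8.29, 8.19 and 8.38. supt6h read 8.75, 8.95 and 8.88 on the former, also above the highest control of 8.74, and 8.49, 8.64 and 8.70 on the latter.

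All 9 probe sets of the ccnt, ell, supt5h and supt6h genes lay above 0, at 0.04 to 0.52 with a median of 0.11, but ccnt1 was the only one called by limma, by SAM or with the block. The pattern did not hold in every fit. With the actin 3′ to 5′ difference as a covariate, 2 of the ell2 probe sets were at -0.02 and -0.03. Without control replicate 2 they were at -0.13 and -0.08, and without morphine replicate 4 they were also below 0. This subset was put together after the values were seen and was given no test. The NELF genes, which hold the polymerase at the pause, were at 0.07 for nelfa, -0.02 for nelfb, 0.02 for nelfcd and -0.03 for nelfe. The intervals of all 4 lay within 1.3-fold. The SAGA subunits supt20 and supt3h were at -0.02 and 0.03.

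**Figure D4:**
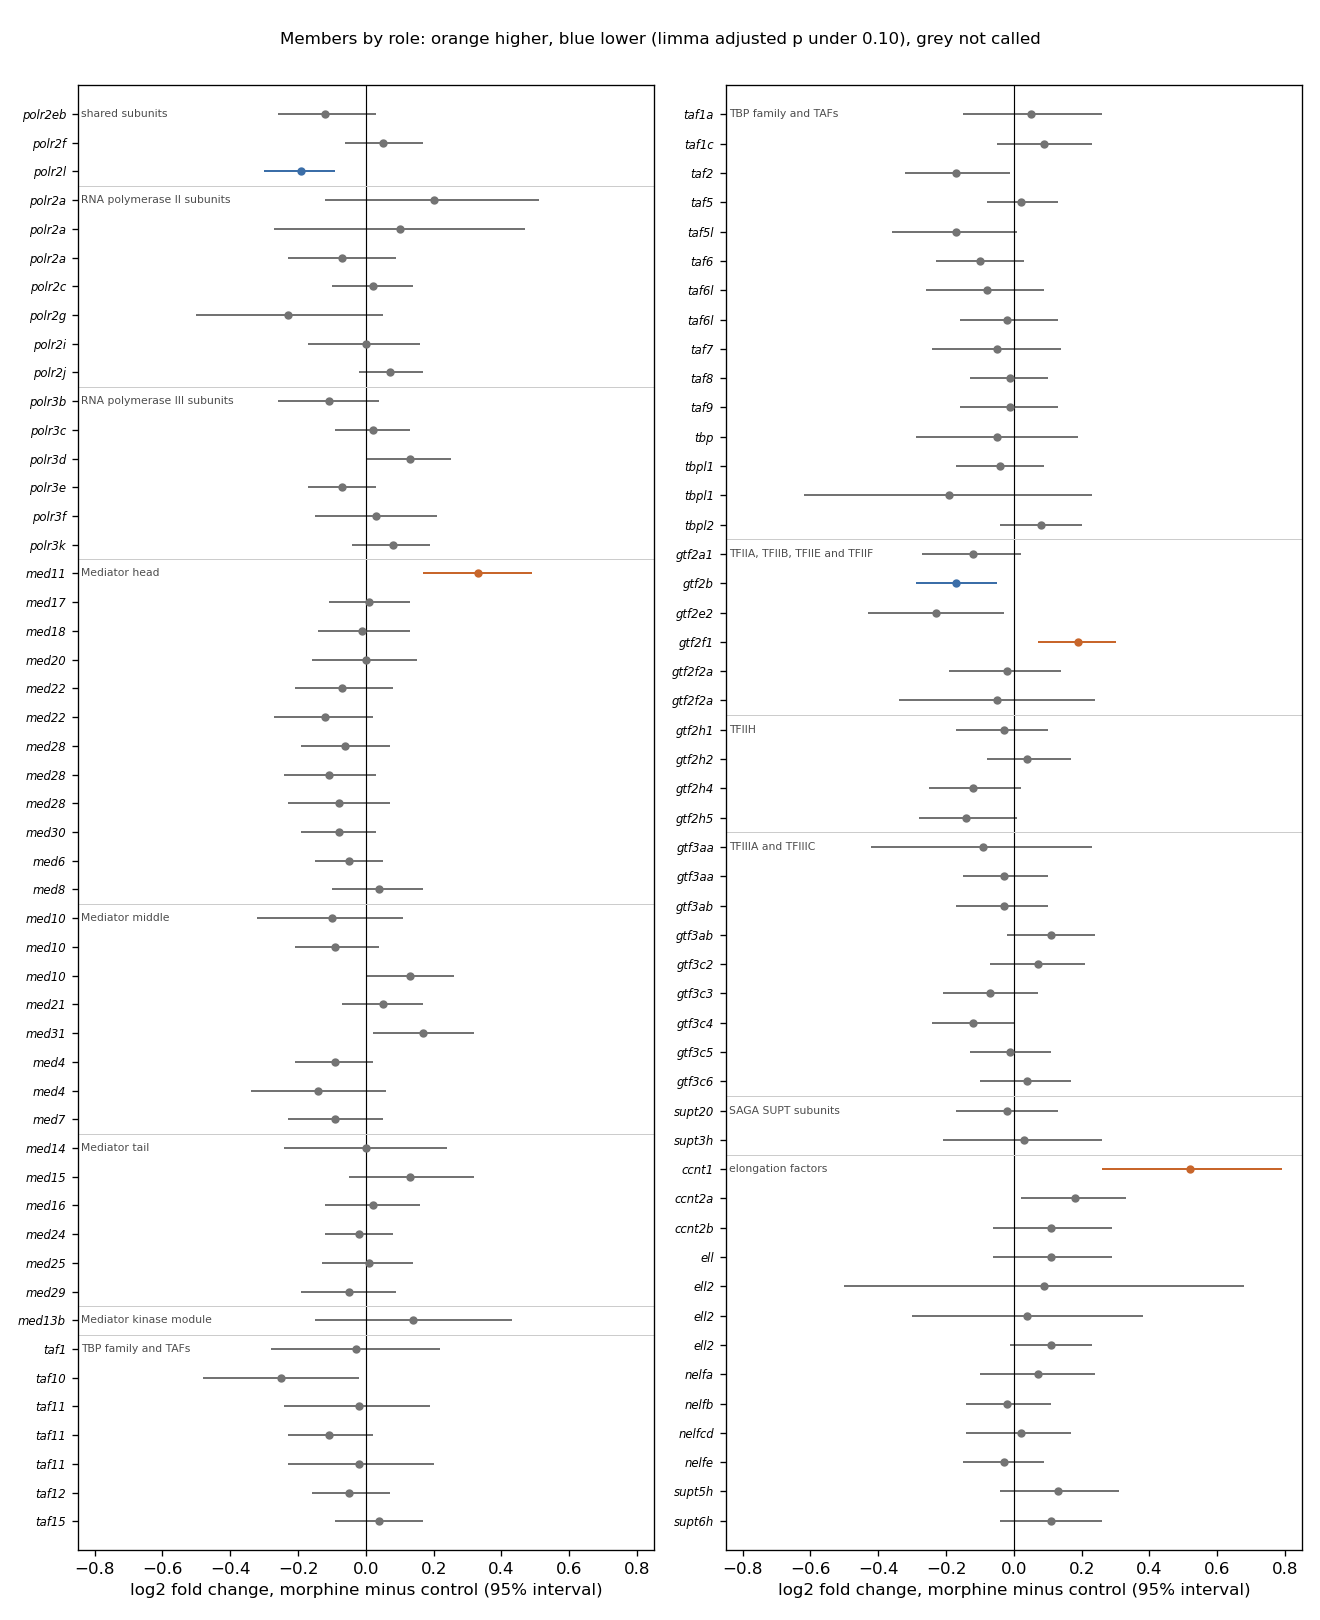
log2 fold change, morphine minus control, with its 95% interval (horizontal axis) for all 99 member probe sets by role, with called members in colour and probe sets of one gene on separate lines. Most intervals include 0, and the 5 called members are ccnt1 (0.52), med11 (0.33), gtf2f1 (0.19), gtf2b (-0.17) and polr2l (-0.19).

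Several members followed another division of the arrays. The tbpl1 probe set with a control mean of 6.12, of a TBP-like factor, read 6.63 and 6.73 on control replicates 1 and 2 and 6.66 on morphine replicate 1, and 5.47 to 6.05 on the other 9 arrays. On the same 3 arrays the actin 3′ minus 5′ difference was lowest, at 3.58, 3.62 and 3.51 against 4.12 to 5.32 on the rest. Probe sets of gtf3aa (control mean 4.69), gtf2f2a (9.35) and taf11 (7.84) were also highest on these 3 arrays. They read 4.96, 5.05 and 5.20 for gtf3aa, 9.64, 9.61 and 9.84 for gtf2f2a, and 8.12, 8.16 and 8.04 for taf11. The highest values elsewhere were 4.66, 9.49 and 7.90. The ell2 probe set with a control mean of 5.85 read 5.66, 4.75 and 5.33 there, with 5.57 to 6.78 elsewhere, so that only control replicate 1 was among the other 9. With the actin difference as a covariate this tbpl1 probe set moved from -0.19 to -0.09 and this ell2 probe set from 0.09 to -0.02, and neither was called in either fit. In that fit 6 members were called, the 5 above and med31 (0.19, adjusted p 0.081), against 9.22% of all probe sets.

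The partners of these complexes outside the symbol rule were covered by a list of 101 further genes, of which 74 were found with 94 probe sets. Genes were matched by symbol or synonym, and the match for tceb3 also took in a probe set that the array annotates as calcoco1b (-0.07, not called). 2 of the 94 were called higher and 0 lower (2.13%, against 6.85% of all probe sets), and at an unadjusted p under 0.05 there were 6 higher and 7 lower. With the replicate number as a block 4 were called, against 9.98% of all, as polr1a was also called higher (0.26, adjusted p 0.0424) and rpap2 lower (-0.23, adjusted p 0.0832). ints7, a subunit of Integrator, which cuts RNA at paused polymerases, rose from 5.78 ± 0.11 to 6.30 ± 0.08 (SD, n = 6 each), a log2 fold change of 0.53 with a standard error of 0.06 and an adjusted p of 6.23e-05. brf1a, a subunit of TFIIIB, rose from 3.40 ± 0.07 to 3.74 ± 0.13, by 0.34 with an adjusted p of 0.00362, at a dim signal. For both genes the groups did not overlap. The PAF1 complex and other elongation factors, SAGA, the CTD phosphatases, the TFIIH helicases and the partner proteins of P-TEFb had 0 calls by limma and by SAM, and with the block none but that of rpap2, which is placed with the CTD phosphatases, with at most 2 probe sets of any of these groups at an unadjusted p under 0.05.

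**Figure D5:**
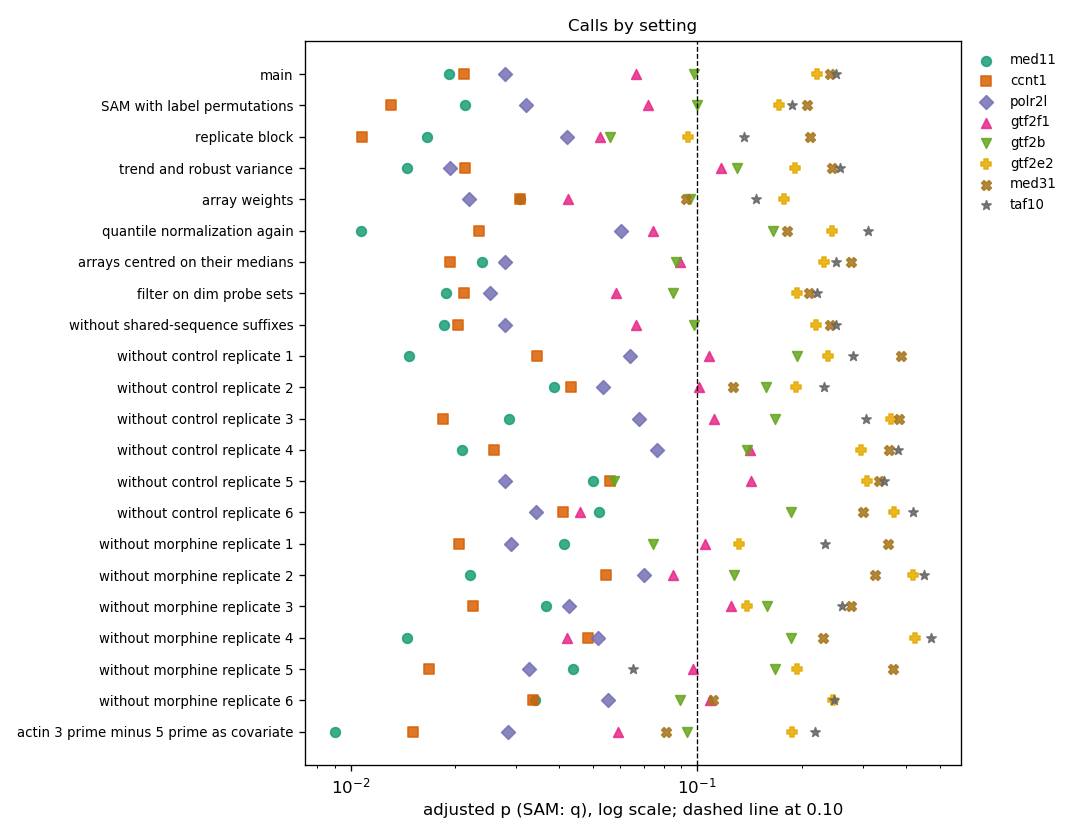
Adjusted p (for SAM the q value, log axis) of 8 members under each way of processing the data, with the dashed line at the threshold of 0.10. ccnt1, med11 and polr2l lie left of the line in every row shown, gtf2f1 and gtf2b lie on both sides of it, and gtf2e2, med31 and taf10 cross it in 1, 2 and 1 rows.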

How the data were processed

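The authors corrected the background, applied quantile normalization and summarised the probes of the 12 arrays with RMA in Bioconductor and R, and the deposited values are log2 signals, 1 per probe set and array, with no versions stated in the sources used. The 115 Affymetrix control probe sets among 15617 were left out of the tests. Genes were named from the array annotation, and the genes of all 99 members were found in the current RefSeq annotation. Arrays give no counts, so that the number of arrays limits the precision.

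Morphine and control were compared without pairs in limma 3.58.1 (R 4.3.3). The tests were two-sided, and p-values were adjusted by Benjamini-Hochberg over the 15502 probe sets, with a threshold of 0.10, the false discovery rate of the methods. Tables and figures were made with Python 3.11.15 and matplotlib 3.10.9. A positive log2 fold change means a higher signal with morphine. SAM was written anew with 100 permutations of the labels. The main limma fit and SAM were run on simulated data with independent noise, and the other fits were not.

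The members and lists were chosen with earlier results of these data known. Probe sets named by rule were those called or without overlap, the highest and lowest of each role, further probe sets of a called gene, fixed members (polr2a, tbp, taf1, med14, supt5h, supt6h, ccnt1 and gtf2b, with polr2b, med1, med12, polr3a and ccnt2 not among the members) and called genes of the further list. The other members were named after their values were seen.

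Control and morphine arrays of the same replicate number correlated at 0.23 to 0.47 (mean 0.30) after removal of the group means, all 6 above 0.1. Arrays of different numbers correlated at a mean of -0.058. Removal of the group means largely fixes that value once the same-number mean is given, so it is no separate support. By the rule of 0.1 the numbers pair the arrays, although the sources do not say what they stand for. Only 2 control arrays and 1 morphine array correlated best with their own number. The replicate number as a block was therefore an alternative, and it added gtf2e2 to the 5 calls. The other alternatives were SAM, trend and robust variance, array weights, quantile normalization again, centring on medians, a filter on dim probe sets (log2 5 on 6 arrays), leaving out probe sets with shared-sequence suffixes, a threshold of 0.05 and leaving out each array. A covariate for the actin 3′ to 5′ difference was chosen after seeing the data.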

Additional observations from a re-analysis of the deposited data

Results flagged for a closer look

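In 66 groups of 6 arrays of the named probe sets, 5 held a single array whose gap to its nearest neighbour was too large a part of the range of the group by Dixon's limit at the 95% level, which chance passes in about 1 of 20 groups. For polr2f, control replicate 5 was lowest at 9.14, and the other controls lay between 9.25 and 9.29. For med13b, control replicate 3 was highest at 5.90. For taf1, morphine replicate 4 was highest at 5.21. For tbp, morphine replicate 5 was lowest at 6.47, and for supt20, control replicate 5 was highest at 6.74. None of these 5 probe sets was called.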

How the results depend on the processing

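The number of members called was 5, and it was 3 with trend and robust variance (6.82% of all probe sets called) and 3 at an adjusted p under 0.05 (4.64% of all). When each array was left out in turn it was 3 to 5, with 5.03% to 7.43% of all probe sets called. It was 3 without control replicates 1, 2, 3 or 4 and without morphine replicate 3. In the other alternatives it was 4 to 6, with 4 after quantile normalization again, in which gtf2b had a log2 fold change of -0.14 and an adjusted p of 0.165 (6.79% of all called). The replicate block gave 6 members, gtf2e2 in addition, and moved the further genes of the machinery from 2 calls to 4, with polr1a (adjusted p 0.0424) and rpap2 (0.0832) in addition. It changed no other call among the named probe sets. ccnt1, med11 and polr2l kept their calls in all 22 alternatives, 28 of the 33 named probe sets never changed theirs, and no called value changed sign. Dim probe sets, with signals below a log2 value of 5, can carry small fold changes whatever their RNA. This limits what can be said of 13 members. The causes of the lost calls were not tested.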
